A study of Mus musculus with 8 samples.

Results

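5-Hydroxymethylcytosine (5hmC) in mouse embryonic fibroblasts (MEFs) was compared with 5hmC in adult liver over protein-coding genes. Both libraries were made by GLIB-Seq, in which a glucose is attached to each 5hmC, opened with periodate and coupled to biotin, so that the fragments that carry the mark are pulled down and sequenced. The MEF library came from primary C57BL/6 embryonic fibroblasts cultured in high-glucose DMEM with serum, for which the labels give embryonic day 11 and the methods a later day. The liver library came from whole liver of C57BL/6 mice aged 8 weeks, an organ that is mostly hepatocytes but also holds Kupffer, endothelial, stellate and bile duct cells. These are 2 of the 6 GLIB-Seq libraries of the series, and no treatment was applied to either. Those of untransfected embryonic stem cells and of brain from mice aged 8 weeks, also 1 library each, are used below for comparison only. With 1 library a side there is no spread between replicates, so every difference below is a description of this pair of libraries and none was tested.

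Members were fixed by rank. The deposited lists hold 217026 peaks in MEFs and 130409 in liver, and the 74000 nuclear peaks with the highest scores of each were kept, which is 34.1% of the MEF list and 56.7% of the liver list. The lowest score kept was 80.04 in MEFs and 144.76 in liver, and the next peak below had the same score in each list. Kept peaks had a median width of 1226 bp in MEFs and 1373 bp in liver, and they covered 102 and 123 Mb. For each of the 22367 protein-coding genes on the nuclear chromosomes (mm9, GENCODE M1), the percent of the gene span under kept peaks was computed, as well as the bp covered within 1 kb of the transcription start site (TSS), called the promoter here. Peak lists carry no read counts, so the depth of both libraries is unknown.

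5hmC is made from 5-methylcytosine by the Tet enzymes and is both a step towards demethylation and a mark that persists in cells that rarely divide. In differentiated tissue it is known for lying along the bodies of active genes and at distal regulatory elements, with little at CpG-rich start sites. Fibroblasts build and remodel connective tissue matrix, whereas hepatocytes make plasma proteins, bile acids and urea and handle lipids, sugars and foreign compounds.

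Intronic stretches of 200 bp from the middle of a peak show the kind of DNA that these lists mark in 1 library alone. They are given from 5′ to 3′ on the strand of the gene, with each CpG, the dinucleotide that carries nearly all 5hmC, in capitals. Prrx1, a homeobox factor of limb and craniofacial mesenchyme, is from a MEF peak (chr1:165228940-165229139, minus strand). Hnf4a, the nuclear receptor that maintains hepatocyte identity (chr2:163357918-163358117, plus strand), and Ass1, the argininosuccinate synthase of the urea cycle (chr2:31357961-31358160, plus strand), are from liver peaks.
Prrx1: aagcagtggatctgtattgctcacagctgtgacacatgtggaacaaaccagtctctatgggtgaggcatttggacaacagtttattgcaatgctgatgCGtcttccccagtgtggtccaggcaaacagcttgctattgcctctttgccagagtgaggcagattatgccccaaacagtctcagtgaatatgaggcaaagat
Hnf4a: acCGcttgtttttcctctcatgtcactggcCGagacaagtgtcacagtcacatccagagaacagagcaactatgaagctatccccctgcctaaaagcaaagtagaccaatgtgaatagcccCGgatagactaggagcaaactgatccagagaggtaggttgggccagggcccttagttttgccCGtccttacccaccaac
Ass1: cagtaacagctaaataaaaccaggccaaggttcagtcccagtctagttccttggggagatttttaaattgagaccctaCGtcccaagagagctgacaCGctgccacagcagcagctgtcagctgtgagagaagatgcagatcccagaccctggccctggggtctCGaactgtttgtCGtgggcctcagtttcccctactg
The Prrx1 stretch holds 1 CpG, and the Hnf4a and Ass1 stretches hold 4 each. The Prrx1 peak met no liver peak of any deposited score. Of the Hnf4a peak 47 bp, and of the Ass1 peak 744 bp, lay under MEF peaks with scores too low to be kept.

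Liver had more of its gene sequence under peaks. On average 13.8% of a gene was covered in liver against 5.31% in MEFs, and the median was 0 in both. A peak lay in 10788 genes in liver (48.2%, exact 95% interval 47.6 to 48.9%) and in 8652 genes in MEFs (38.7%, 38.0 to 39.3%), where the intervals given here and below cover counting error only. Both libraries marked 6287 genes, liver alone 4501 and MEFs alone 2365, and 9214 genes had no kept peak in either. Of all genes, 28.7% were covered at least 10 percentage points more in liver and 6.37% at least 10 points more in MEFs, which is the background against which the gene lists below are read. Across genes the 2 coverages had a Spearman correlation of 0.379. Genes are not independent replicates, and 4401 of them overlap another protein-coding gene, so that a peak there counts for both.

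**Figure D1:**
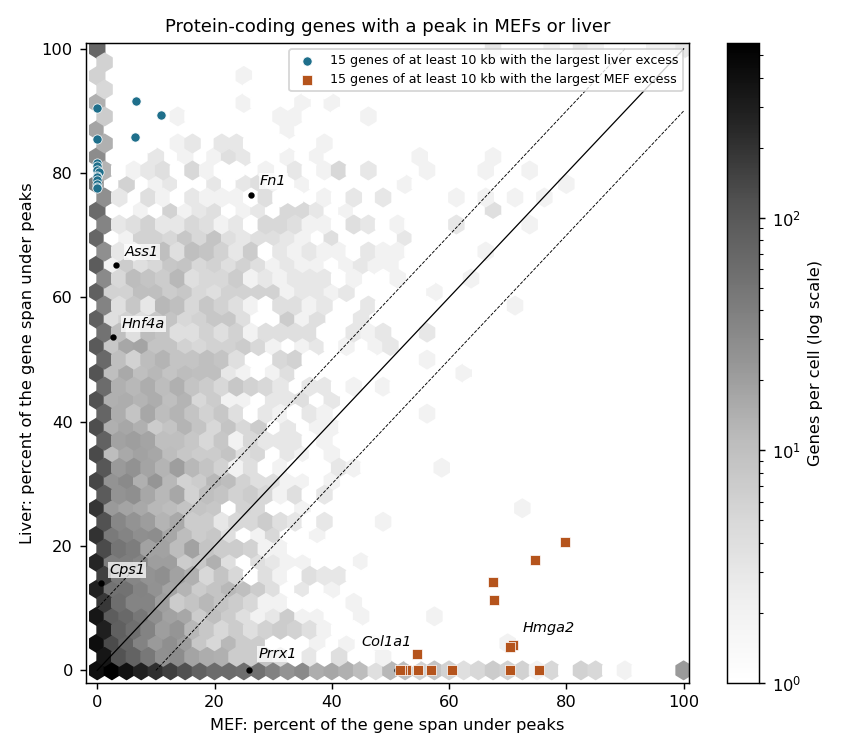
Percent of the gene span under kept 5hmC peaks in MEFs (x axis) and liver (y axis) for protein-coding genes with a peak in either library, with the shade of each cell giving the number of genes on a log scale. Solid and dashed lines mark equal coverage and a difference of 10 percentage points. Most genes lie on the liver side, and the 15 genes with the largest MEF excess (squares) reach at most 20.7% in liver.

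By midpoint, 41.8% of the MEF peaks lay outside genes and promoters (41.4 to 42.1%) but 23.5% of the liver peaks (23.2 to 23.8%). Introns held 51.3% of the MEF and 63.4% of the liver peaks, exons 5.04 and 10.6%, and promoters 1.88 and 2.41%. Of the MEF peaks, 29.6% met a kept liver peak by at least 1 bp, and of the liver peaks 29.1% met a kept MEF peak. With peaks of any deposited score in the other list, these shares were 38.8 and 54.2%. The lowest deposited score was 30 in MEFs and 80 in liver, so shares with any deposited score are not counted alike in the 2 directions. MEF peaks in exons met a kept liver peak in 48.2% of cases and those outside genes in 16.8%. In the other direction, liver peaks in exons met a kept MEF peak in 22% of cases, and those outside genes in 30.0%. Genes without a kept peak were not always without a peak. Of the 3329 genes at least 10 points higher in liver with no kept MEF peak, 63.0% had a MEF peak of lower score in the deposited list, and of the 907 genes in the opposite case 35.6% had a liver peak of lower score. These 2 shares, too, rest on lists that end at unlike scores, and the part of this was not tested.

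Genes of hepatocyte function were covered in liver across nearly every process examined. The 9 hepatocyte lists together hold 237 genes, of which 188 were covered more in liver, 7 more in MEFs and 42 had no kept peak in either. By any amount, 41.1% of all genes were higher in liver and 17.7% in MEFs. At least 10 points separated 168 genes in favour of liver (70.9%, against 28.7% of all genes) and 5 in favour of MEFs (2.11%, against 6.37%). Their mean coverage was 31.9% in liver and 4.6% in MEFs, with 14.0% in embryonic stem cells and 8.56% in brain when their 74000 highest peaks were taken in the same way. Liver had the highest coverage of the 4 cell types in 175 of the 208 genes with a kept peak in any of them, against 6386 of 15386 among all genes.

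Urea cycle and amino acid catabolism was among the most lopsided lists, with 27 of 30 genes higher in liver and none higher in MEFs. Asl, the argininosuccinate lyase, was covered over 65.3% in liver and listed at 0 in MEFs. Ass1 was covered over 65.2% in liver and 3.22% in MEFs, and Sds, the serine dehydratase, over 66.5 and 0%. Cps1, which starts the cycle by making carbamoyl phosphate, had 14.1% in liver and 0.564% in MEFs. Otc, Tat and Gnmt had no kept peak in either library. Otc lies on chromosome X, where the same held for 899 of 932 genes.

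Fatty acid oxidation and peroxisome genes had the highest mean of the lists in liver, 41.4% against 5.49% in MEFs, and 24 of 25 were higher in liver. Acadvl, the very long chain acyl-CoA dehydrogenase, reached 85.7% in liver and 0 in MEFs, and Cpt1a, which admits fatty acids to mitochondria, 60.6 and 8.27%. Among lipoprotein and cholesterol genes 21 of 26 were higher in liver. They include Lss, the lanosterol synthase (79.4 and 4.99%), and Apob, the structural protein of VLDL (28.6 and 2.45%). The 5 remaining genes of this list, Apoa1, Apoa2, Apoa5, Apoc3 and Apoe, were bare in both libraries.

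Coagulation and complement genes differed in 33 of 34 cases, all higher in liver. C3, the central complement component, had 77.8% under 6 peaks in liver and 0 in MEFs, F12, which starts the contact pathway, 71.0 and 0%, and F7 of the extrinsic pathway 77.8 and 19.3%. Glucose and glycogen genes were higher in liver in 18 of 22 cases, with Pklr, the liver pyruvate kinase, at 66.4 and 0% and G6pc, the catalytic subunit of glucose 6-phosphatase, at 46.2 and 0%. Hepatocyte transcription factors were higher in liver in 20 of 25 cases. Nr1i3, the xenobiotic receptor CAR, had 68.7 and 0% and Hnf4a 53.6 and 2.71%, whereas Cebpa, Foxa1 and Foxa2 had no kept peak in either library.

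Of the remaining hepatocyte lists, those of plasma proteins and of xenobiotic genes held both densely covered genes and bare ones. Among all genes, 9214 of 22367 had no kept peak in either library, so bare genes were not particular to these lists. Of 27 plasma protein genes, 13 were higher in liver and 13 were bare in both, including Alb, Ttr, Hp and Serpina1a. The covered ones include the linked inter-alpha-trypsin inhibitor genes Itih1 (73.5% in liver, 0 in MEFs) and Itih4 (73.1 and 0%) and Hpx, which binds heme (65.7 and 0%). Of 30 genes of xenobiotic conjugation and oxidation, 18 were higher in liver and 10 were bare, among them Cyp2e1, Cyp3a11 and Cyp2c29. Ugt1a1, which conjugates bilirubin, had 98.3% in liver and 0 in MEFs, but its span lies within those of other Ugt1a genes, so that their peaks cannot be told apart. Gstp1 had 32.0% in MEFs and 0 in liver. In bile acid synthesis and transport 14 of 18 genes were higher in liver, with the canalicular transporter Abcc2 at 62.6 and 6%, but not the 2 hydroxylases Cyp7a1 (0 in liver, 7.85% in MEFs) and Cyp8b1 (0 in liver, 87.2% in MEFs). Cyp8b1 is a gene without introns, and in liver a peak of score 1630.36 began 3609 bp from its TSS, past its end. Of the 42 hepatocyte genes without a kept peak in either library, 19 had a kept liver peak within 10 kb (45.2%, 29.8 to 61.3%) and 5 a MEF peak (11.9%, 3.98 to 25.6%). Among all 9214 genes bare in both libraries, the shares were 18.9% for liver and 15.9% for MEFs. The 42 hepatocyte genes had a median span of 9221 bp against 24163 bp for the other hepatocyte genes.

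**Figure D2:**
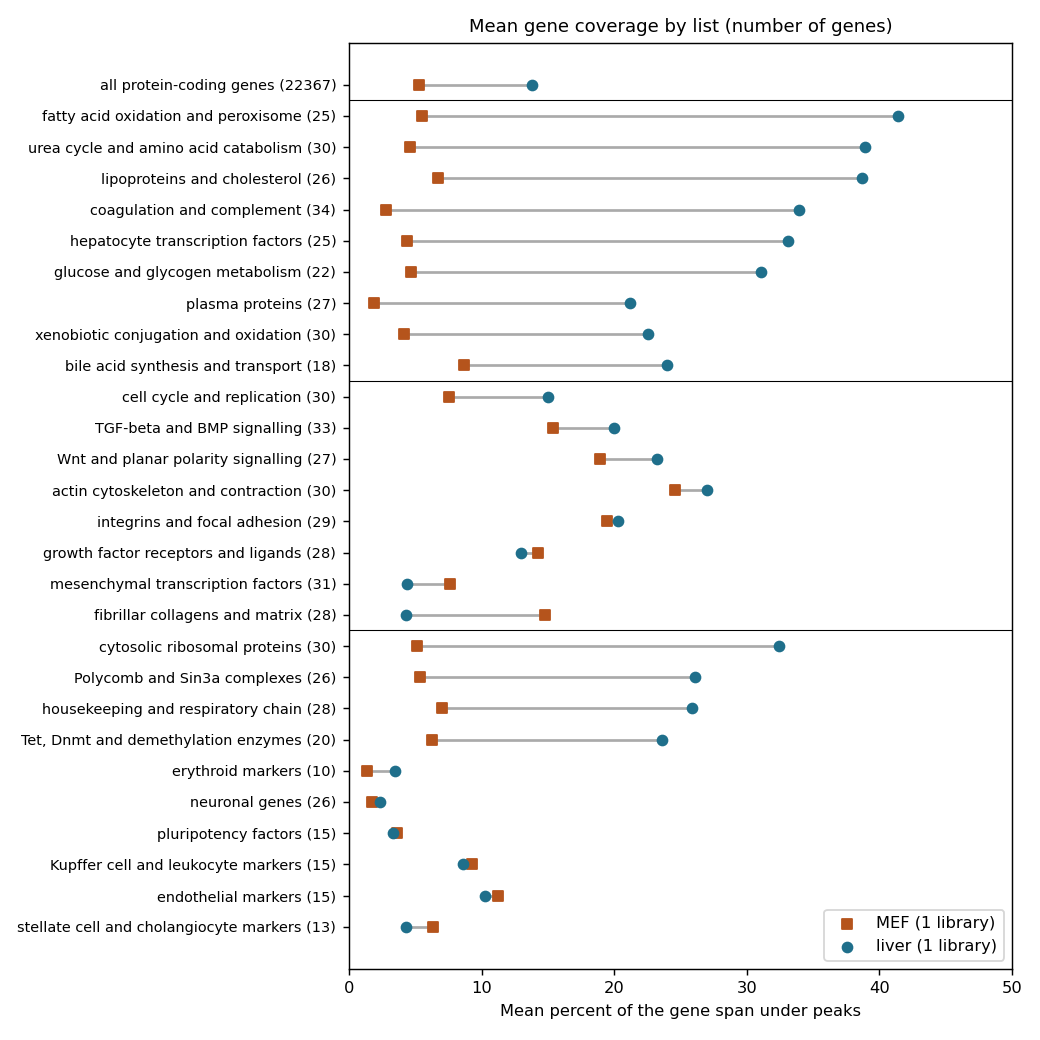
Mean percent of the gene span under kept peaks in MEFs (squares) and liver (circles) for each gene list, with the number of genes in parentheses and the hepatocyte, fibroblast and other lists set apart by lines. Each of the 9 hepatocyte lists has a higher mean in liver, while collagens and matrix, mesenchymal transcription factors and growth factors are the fibroblast lists with a higher mean in MEFs.

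Fibroblast genes were split by direction, but a larger share of them than of all genes was higher in MEFs. The 8 fibroblast lists hold 236 genes, of which 107 were covered more in MEFs, 86 more in liver and 43 in neither. Of those with unequal coverage 55.4% were thus higher in MEFs, but 46.9% when every peak with a score of at least 80 was kept in both lists, so that the direction depends on that choice. At the limit of 10 points, 61 genes were higher on each side (25.8%), against 6.37% of all genes for MEFs and 28.7% for liver. The mean coverage was 15.2% in MEFs and 15.9% in liver.

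Among the fibroblast lists, that of the extracellular matrix had the largest mean excess in MEFs. Of 28 genes of collagens and matrix, 19 were covered more in MEFs and 4 more in liver, with a mean of 14.8 and 4.28%. Col1a1, the main chain of type I collagen, had 51.1% under 7 peaks in MEFs and 0 in liver, and its partner Col1a2 had 20.7 and 0%. Thbs1, the matricellular protein thrombospondin 1, had 70.4 and 0%, Loxl1, which crosslinks elastin, 35.3 and 0%, and the microfibril genes Fbn1 and Fbn2 had 16.3 and 18.1% against 0. Fn1, fibronectin, which hepatocytes also secrete into plasma, went the other way, with 26.2% in MEFs and 76.6% in liver. Over the 43 genes named as collagen chains, 32 were higher in MEFs, 6 in liver and 5 bare, and 21 were covered in MEFs alone. The largest excess after Col1a1 was that of Col4a2 (50.3 and 7.62%), a basement membrane chain, and the largest in liver were those of Col5a3 (38.5% in liver, 7.02% in MEFs) and Col18a1 (43.0 and 16.7%).

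Mesenchymal transcription factors were higher in MEFs in 13 of 31 cases and in liver in 3, with 15 bare. Prrx2 had 32.2% in MEFs and 0 in liver, Prrx1 25.9 and 0%, Runx2, the bone regulator, 16.4 and 0%, and Twist2 30.7 and 6.52%, while Twist1 had none in either. Snai1 and Sox9 were covered in liver alone, over 56.9 and 40.9%. Growth factor receptors and ligands were higher in MEFs in 19 of 28 cases, with the orphan receptor Ror2 at 44.2 and 0.702%, Igf1r at 41.3 and 2.78%, Pdgfrb at 29.9 and 0% and Pdgfra at 18.5 and 0%. Fgfr3 (70.5% in liver, 9.47% in MEFs) and Vegfa (53.7 and 5.75%) stood on the liver side.

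Genes of the contractile and adhesive machinery were covered in both libraries. The counts here are read against all genes, of which 41.1% were higher in liver and 17.7% in MEFs by any amount. Actin and contraction genes were higher in liver in 15 of 30 cases and in MEFs in 13, with means of 27.0 and 24.6%, and integrin and focal adhesion genes in 15 and 14 of 29, with means of 20.3 and 19.5%. By at least 10 points, 30.0% of the actin list were higher on each side. The integrin list had 31.0% for liver and 20.7% for MEFs, against 28.7 and 6.37% of all genes. On the liver side were Srf, the transcription factor of actin genes (59.9% in liver, 0 in MEFs), Cnn3, a calponin (72.5 and 30.2%), Tln1, the talin that links integrins to actin (52.8 and 11.5%), Tns1, a tensin (62.1 and 21.7%), and Fermt2, a kindlin that activates integrins (63.8 and 24.2%). Myh9, nonmuscle myosin, had 73.9% in liver and 42.8% in MEFs, but liver minus MEFs came to -1.23 points when 500 bp around each peak midpoint were counted. Tagln2, a transgelin, had 55.5% in MEFs and 13.2% in liver. Among the genes covered in MEFs alone, Vim, the mesenchymal intermediate filament, had 27.0% in MEFs and 0 in liver, Acta2, smooth muscle actin, 24.2 and 0%, and S100a4, a gene often used as a fibroblast marker, 100 and 0%. Wnt genes were higher in MEFs in 15 of 27 cases and in liver in 9, with means of 18.9 and 23.3%. No secreted ligand or antagonist in this list was higher in liver. Of all 19 genes named as Wnt ligands, however, 2 were higher in liver and 12 in MEFs. On the MEF side were the ligand Wnt11 (30.2 and 0%) and the antagonist Sfrp1 (38.0 and 7.18%), and on the liver side the signal transducer Dvl1 (70.1% in liver, 0 in MEFs) and the co-receptor Lrp5 (50.9 and 13%). TGF-beta and BMP genes were higher in liver in 17 of 33 cases and in MEFs in 10. The ligand Tgfb2 had 38.4% in MEFs and 6.87% in liver, whereas the ligand gene Inhba (46.5% in liver, 17.5% in MEFs) and Smad1 (62.6 and 33.5%) and Smad3 (72.7 and 49.2%), which relay the signal, were higher in liver. Cell cycle and replication genes were higher in liver in 15 of 30 cases and in MEFs in 4, near the shares of all genes, and Mki67, Pcna, Plk1 and Ccnb1 were bare in both.

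**Figure D3:**
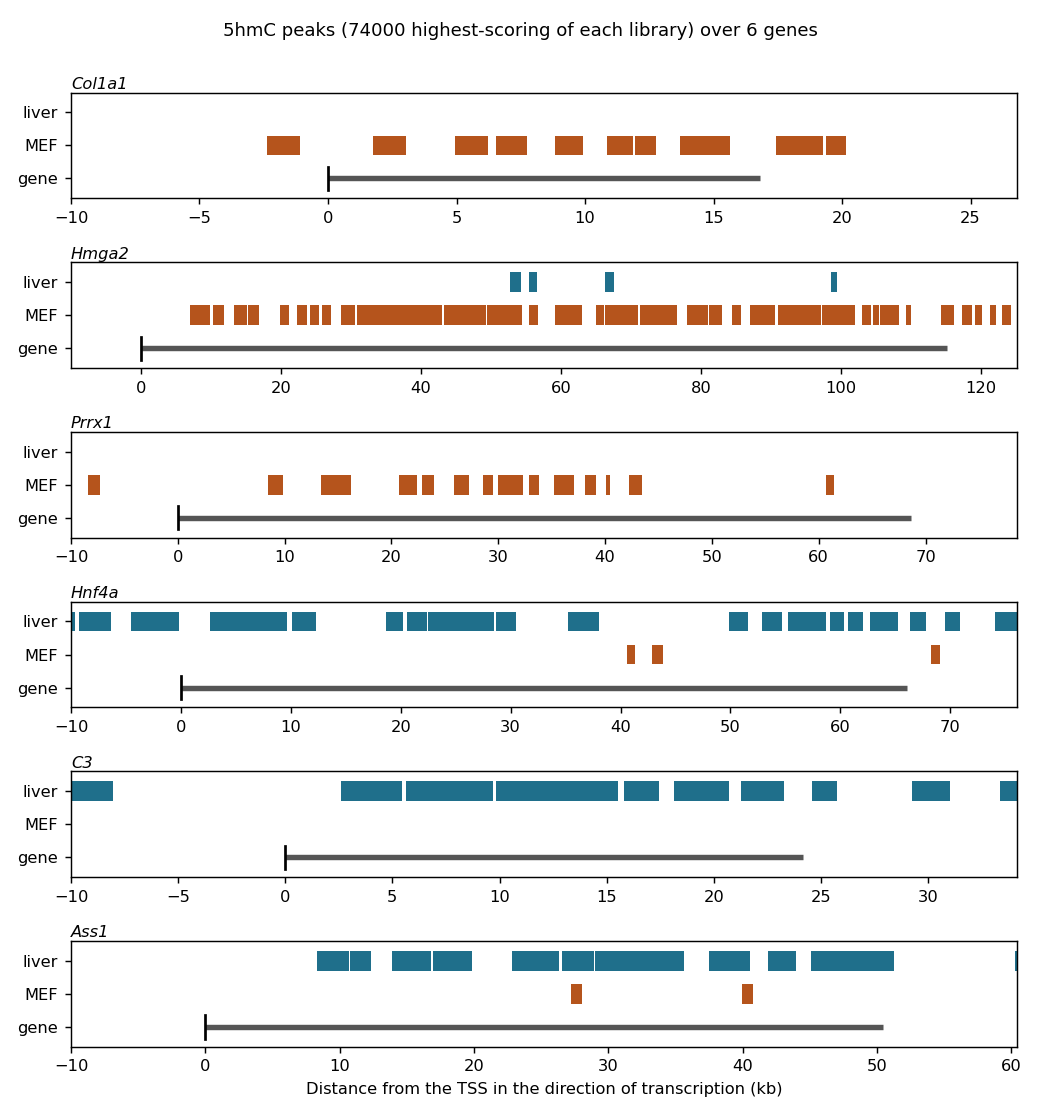
Kept peaks of MEFs and liver over 6 genes and 10 kb on either side, by distance in kb from the TSS (vertical mark) in the direction of transcription. Col1a1, Hmga2 and Prrx1 carry MEF peaks along the gene, with liver peaks only in Hmga2, where they cover 4.14% of the gene, while Hnf4a, C3 and Ass1 carry liver peaks and MEF coverage of at most 3.22%.

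Liver also covered genes used by every cell. Of 30 cytosolic ribosomal protein genes, 24 were higher in liver and 1 in MEFs, with means of 32.4 and 5.15%. Stem cells and brain had 0.707 and 3.43% over the same genes, and liver was the highest of the 4 cell types in 24 of the 25 that had a kept peak. Housekeeping and respiratory chain genes had means of 25.9% in liver and 6.99% in MEFs, Polycomb and Sin3a genes 26.1 and 5.33%, and the Tet, Dnmt and related enzymes 23.6 and 6.23%. In the last of these Tet3 had 56.9% in liver and 18.8% in MEFs and Dnmt3a 59.0 and 21.2%, but Tet1 had 1.64 and 5.82%. Neuronal, erythroid and pluripotency genes had means under 4% in both libraries.

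Markers of other liver cells did not show the liver excess of the hepatocyte lists. Kupffer cell and leukocyte markers were higher in liver in 2 of 15 genes and in MEFs in 5, with 8 bare in both and means of 8.57 and 9.25%. Clec4f, Cd5l and Marco had no kept peak in either library, and Cd68 had 100% in liver and 76.5% in MEFs. Endothelial markers were higher in liver in 4 of 15 genes and in MEFs in 9 (means of 10.3 and 11.2%), and stellate and bile duct markers in 1 and 9 of 13 (4.27 and 6.35%). Of all genes, 41.1% were higher in liver and 17.7% in MEFs. In bulk tissue, fewer cells of a type and less 5hmC per cell cannot be told apart.

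Among single genes of at least 10 kb, the 15 with the largest liver excess include genes of general cell functions. Wdr81 had 85.4% in liver and 0 in MEFs, Xrcc3, which acts in homologous recombination, 81.7 and 0%, and Flcn, the tumour suppressor folliculin, 81.2 and 0%. Lman2, a cargo lectin of the secretory pathway, had 80.5 and 0%, Prkab1, a subunit of AMP-activated kinase, 78.2 and 0%, and C3 was 1 of the 15. BC006779 (90.5 and 0%), 1810013D10Rik (91.6 and 6.67%), Tnfaip2, Xylt2, Chkb, Pcif1, Fads6, Usp19 and Etv3 complete the set, the last 7 at 77.7 to 89.4% in liver.

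The 15 with the largest MEF excess include genes of growth, matrix and signalling. Scd2, a stearoyl-CoA desaturase of nonhepatic tissue, had 75.3% in MEFs and 0 in liver, followed by Thbs1. Hmga2, a chromatin protein of embryonic growth, had 71.0% of its 115195 bp under 32 peaks in MEFs and 4.14% under 4 peaks in liver. Spsb1 had 70.4 and 3.78%, Pmepa1, an inhibitor of TGF-beta signalling, 79.8 and 20.7%, and Dusp5, a phosphatase of ERK, 74.6 and 17.7%. Basp1 (56.9 and 0%), the transcription factor Bcl11b (54.6 and 0%) and the sphingosine 1-phosphate receptor S1pr3 (51.9 and 0%) were bare in liver, as were BC100451, Gm5105 and the imprinted gene Rtl1. Tinagl1, Vwa2 and Gm11744 had 67.4, 54.5 and 67.6% in MEFs.

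Gene families, taken by shared symbol stem and with at least 10 genes and ranked by mean difference, compare the libraries without a chosen list. The mean excess in liver over all genes was 8.52 points. Of 266 families, the largest mean excess in liver was that of the Psmb subunits of the proteasome (43.2 against 2.16% over 12 genes), followed by the Pex peroxins (44.2 and 4.2% over 16 genes), the Dnajb co-chaperones, Rassf, the Ndufb subunits of complex I (31.1 and 0.0336% over 11 genes), Abhd, Klhdc and Irf. At the other end were the Wnt ligands (12.6% in MEFs, 5.42% in liver over 19 genes), the Chst sulfotransferases of matrix glycans (14.1 and 7.47%), the Cacna calcium channel subunits (7.14 and 1.11%), Col, Tlr, Dnahc, Rgs and Igsf. Between these ends, the liver excess was 14.2 points in Ugt, 8.64 in Cyp and 8.54 in Serpina, and the Mup genes were bare in both libraries. The median span was 5006 bp in Psmb and 144500 bp in Cacna.

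Gene length moved with the direction of the difference. Among genes with unequal coverage, liver was higher in 76.9% of those under 5 kb (74.6 to 79.1%), in 81.5% of those of 5 to 10 kb, in 65.1% at 50 to 100 kb, in 51.9% at 100 to 200 kb and in 30.6% at 200 kb or more (27.5 to 33.9%). The mean coverage in MEFs stayed between 4.25 and 7.72% over these classes, while in liver it went from 19% at 5 to 10 kb to 5.99% at 200 kb or more. Along the genome, windows of 1 Mb with no TSS were covered over 0.44% in MEFs and 0.101% in liver, and windows with 40 or more TSSs over 3.72 and 12.6%. Windows of 5 to 9 TSSs had 5.36 and 5.29%. Chromosome X held 72 kept MEF peaks and 28 kept liver peaks, which is 0.0155 and 0.00603 times its share of the genome by length. Of its 932 genes, 899 had no kept peak in either library, so a bare gene there is not particular. The part of length and gene density in the differences between gene lists was not tested.

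**Figure D4:**
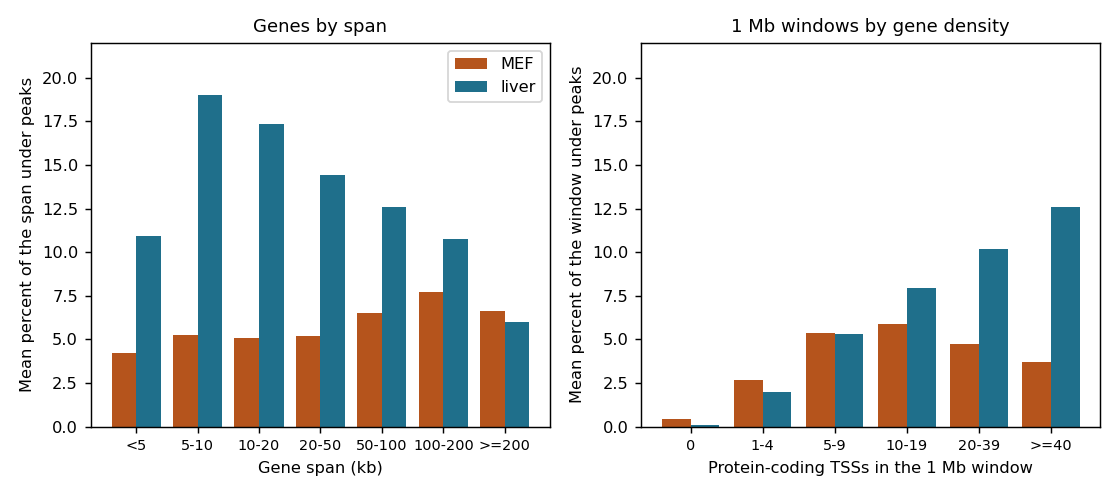
Left, mean percent of the gene span under kept peaks by gene span in kb, and right, mean percent of 1 Mb windows under kept peaks by the number of protein-coding TSSs in the window, for MEFs and liver (1 library each, no error bars). Liver coverage is higher in each denser class, up to 12.6%, while MEF coverage is highest, at 5.88%, in windows of 10 to 19 TSSs.

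Around the TSS the libraries came close to each other. A kept peak lay over 3.25% of TSSs in MEFs and 3.94% in liver, but 1 to 2 kb away it lay over 5.74 and 12.4%. The level at the TSS was thus 0.567 times that of the flanks in MEFs and 0.319 times in liver. At 5 kb upstream, however, MEFs had 3.3% and liver 8.2%, so that MEF coverage at the TSS was close to that further upstream. The lowest MEF value within 5 kb, 3.15%, lay at -2750 bp. Along the gene MEF coverage was 5.16% on average in the middle 10 of 100 parts and 5.48% in the last 10, with its highest value, 5.92%, in part 100. Liver had 13.7 and 17.5%, with its highest value, 18.1%, in part 97.

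**Figure D5:**
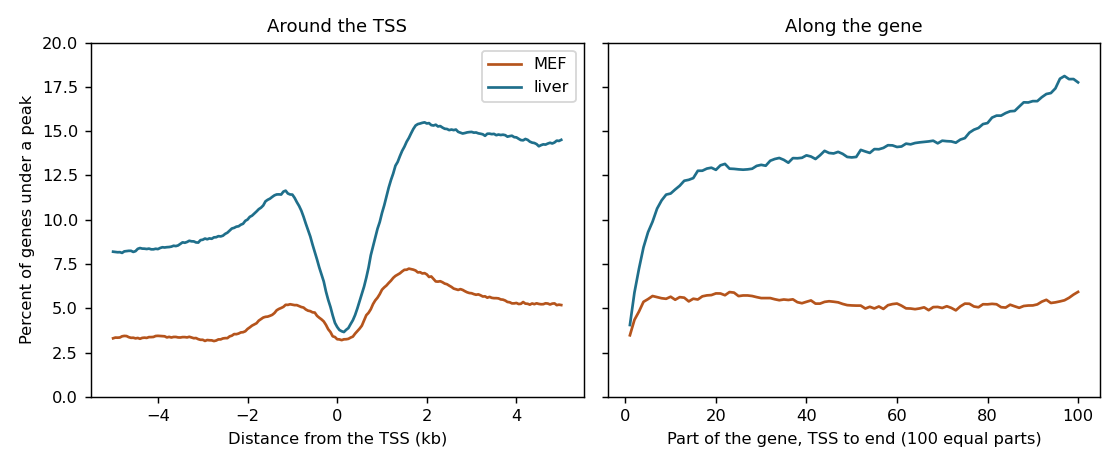
Percent of the 22367 protein-coding genes with a kept peak at each position, by distance from the TSS in kb (left) and over 100 equal parts of the gene (right), in MEFs and liver. Both dip at the TSS, to 3.25% in MEFs and 3.94% in liver, and towards the gene end liver reaches 17.5% and MEFs 5.48% over the last 10 parts.

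Promoters with a kept peak numbered 4563 in liver (20.4%, 19.9 to 20.9%) and 2680 in MEFs (12%, 11.6 to 12.4%), of which 1219 were shared. At least 25 percentage points, or 500 of the 2000 bp, separated 9.17% of promoters in favour of liver and 4.69% in favour of MEFs. By the share with a kept peak in the 2000 bp, the liver excess was greatest at CpG-rich promoters, though rarely at the TSS itself. Of 7740 promoters of high CpG, 28.2% had a kept peak in liver (27.2 to 29.3%) and 12.8% in MEFs (12.1 to 13.6%), and of 9097 promoters of low CpG 11.8% (11.2 to 12.5%) and 10.2% (9.58 to 10.8%). The genes behind them differed in the same way, as 43.6% of high CpG genes but 14.5% of low CpG genes were at least 10 points higher in liver over the span, against 5.79 and 5.98% in MEFs. The TSS itself lay under a peak at 1.12% of high CpG promoters in liver and 0.375% in MEFs, against 5.89 and 5.51% at low CpG. At 25 points, 9.87% of high, 11.4% of intermediate and 7.2% of low CpG promoters were higher in liver, and 2.43, 5.71 and 5.98% in MEFs. Promoters wholly covered in liver and bare in MEFs include those of the glycosyltransferases B3galt4 and B3gnt8 and the adhesion protein Amigo3, with 2000 and 0 bp, together with 1110003O08Rik, 4732471J01Rik and 5330417H12Rik. The reverse was seen at Ifitm3, which restricts viral entry, Lgals7, a galectin, Ankrd1, a target of YAP, BC034090 and ORF63.

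The DNA under the peaks was searched for 7 short motifs, of which the AP-1 core differed by the most percentage points. The search was made on both strands in the central 500 bp of peaks that met no kept peak of the other library, and in windows of the same length every 50 kb of the genome. They may overlap one another, and a match is not a bound site. TGANTCA, the core recognised by AP-1, the Fos and Jun dimer, was in 28.8% of 52078 MEF peaks (28.4 to 29.2%), in 13.5% of 52478 liver peaks (13.2 to 13.8%) and in 14.2% of genome windows. The share was 30.5% in MEF peaks outside genes and 27.5% in those in introns, against 14.5 and 13.6% in liver. Also searched were peaks that met a kept peak of the other library, where this core was in 23.8% of MEF and 17.7% of liver peaks. All values below are again for peaks that met none. CATTCCA, recognised by TEAD factors, was in 12.1% of the MEF, 7.61% of the liver and 8.0% of the genome windows. CAAAGTCCA, a form of the HNF4 element, was in 0.593, 0.867 and 0.647%, TGTTTAC of forkhead factors in 7.14, 7.68 and 7.47%, and the E-box CAGATG in 37.9, 35.4 and 33.7%. TTGCGCAA of C/EBP was in 0.0806, 0.0667 and 0.0548%, and the NF1 palindrome in 0.134, 0.0515 and 0.0333%. The peaks of both libraries were richer in CpG than the genome, with a median of 8 per window in MEFs and 7 in liver against 3, and a GC content of 46.8 and 47.2% against 41.6%.

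Stretches of 100 bp around the AP-1 core, in capitals, are shown from intronic MEF peaks of Hmga2 (chr10:119866353-119866452, minus strand) and Spsb1 (chr4:149319706-149319805, minus strand), 2 of the genes with the largest MEF excess.
Hmga2: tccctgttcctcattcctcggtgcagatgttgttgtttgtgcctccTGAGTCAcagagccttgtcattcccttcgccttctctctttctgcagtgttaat
Spsb1: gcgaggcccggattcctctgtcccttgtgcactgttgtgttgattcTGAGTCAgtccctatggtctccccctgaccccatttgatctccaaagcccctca
The Hmga2 peak, at 4548 bp wide, ranked 35 in the MEF list with a score of 1416.68, and the Spsb1 peak ranked 1513 with 518.71.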

How the data were processed

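GLIB-Seq libraries of MEFs and liver, 1 each, were used, with those of untransfected embryonic stem cells and brain, 1 each, for comparison. The authors aligned reads to mm9 with Bowtie 0.12.7 (unique hits only), removed redundant reads and ran MACS 1.4.1 on each library. Versions and CASAVA 1.8 are from the submitters' processing notes, and the control of each list is not given in the sources used here. As a deposited value, each peak has 1 score from MACS, which served only to rank peaks. Depth is unknown.

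Genes were the protein-coding genes of GENCODE M1 on NCBIM37, the same assembly as mm9. The mitochondrial peak of each list was left out. Coverage was computed with Python 3.11.15, numpy 2.4.6, pandas 2.3.3, scipy 1.17.1, pysam and samtools 1.23.1, and was tested on simulated peaks. Shares have exact (Clopper-Pearson) 95% intervals. Without replicates no test was made.

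The members, the 27 gene lists and the rules were chosen with earlier results of these data known. Of 673 listed genes 671 were found. Genes named by rule are the 15 of at least 10 kb with the largest difference each way, the 6 promoters each way (ties by symbol), the 4 list members with the largest difference and the 8 families at each end. Others named for their role, the genes whose sequence is shown, and the comparisons of motifs, length, gene density, overlap and flanking peaks were chosen after values had been seen. All 7 motifs counted are given. For a symbol shared by 2 annotated genes (Trf), the longer was first used and later replaced by the one of known status. CpG classes (500 bp windows between -700 and 200 bp of the TSS; high, observed over expected CpG above 0.75 with GC above 55%; low, none above 0.48) were first run with windows every 5 bp and rerun every 1 bp after the first counts were seen to differ from earlier counts of these classes, which neither step matched. Some genes that these rules name are not reported here.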

Additional observations from a re-analysis of the deposited data

How the results depend on the processing

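No paired analysis was possible because each cell type has 1 library, and leaving out a replicate was not possible either. The alternatives gave 62 summary values, of which 33 lay inside the counting interval or within 1.5 times the value reported, 28 moved and 1 reversed, and the cause was not tested. The share of unequal fibroblast genes higher in MEFs, 55.4%, became 46.9% with a score of at least 80 in both lists, which leaves 130408 liver peaks against 74068. With the same setting, liver was higher in 77.6% of unequal genes and 76.7% of unequal promoters, in place of 69.9 and 67.2%, and 3212 promoters were at least 25 points higher in liver. Equal bp covered, reached with 53863 liver peaks, gave 64.4 and 60.3%. With 37000 peaks of each list, 1267 promoters were higher in liver and 622 in MEFs, a liver share of 69.3%, and with 130000 peaks the share was 63.8%. Taking 500 bp around each midpoint gave 2095 genes higher in liver and 354 in MEFs at 10 points, and 825 and 652 promoters, with liver shares of 68.0 and 59.4%. Promoters of 500 bp on each side gave 1282 in favour of liver and a share of 63.7%, and promoters of 2 kb gave 3157 and 69.7%. All annotated genes gave 2148 genes higher in MEFs and a liver share of 68.0%, and 3254 and 1743 promoters with a share of 64.9%. Genes of at least 10 kb gave 4234 and 941 genes, a share of 67.0%, and 98.7% for hepatocyte genes, which otherwise stayed between 94.8 and 97.8%.

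For the 159 genes named by rule, 329 of 513 values moved by less than 10 points, 183 by more, and 1 reversed. Myh9 went from a liver excess to -1.23 points with 500 bp around each midpoint. Added after the data had been seen, windows every 5 bp gave 7657 promoters of high, 5573 of intermediate and 9137 of low CpG, in place of 7740, 5530 and 9097. The longer gene of the symbol Trf gave an excess of 23.4 points in liver in place of 34.9.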
